A study of Mus musculus with 6 samples.

Results

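The FOXO transcription factors Foxo1, Foxo3 and Foxo4 and 6 of their known target genes, namely Txnip, Sesn3, Irs2, Bcl6, Pik3r1 and Ccng2, were followed in mouse LSK cells, that is, bone marrow cells that lack lineage antigens and carry Sca-1 and c-Kit, the fraction that holds the hematopoietic stem and progenitor cells (HSPCs). These 9 genes were taken by symbol from a table of 55487 genes, and 97 other genes of the same pathway, listed by role, were examined beside them. All animals had received sublethal total body irradiation and their LSK cells were sorted in the second week after exposure; the series holds no unirradiated sample. Tespa1-/- mice carry the germline null allele Tespa1tm1Smoc on a C57BL/6 background, present in every tissue and not only in blood cells, and Tespa1+/+ littermates served as controls. The mice were young adult males, and 3 libraries were sequenced per genotype. Whether a library came from 1 mouse or from a pool was not stated, so the p-values measure the spread between these libraries, which may in part be technical.

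FOXO proteins hold hematopoietic stem cells (HSCs) in quiescence and protect them from oxidants. They act downstream of growth factor receptors: ligand binding activates phosphoinositide 3-kinase (PI3K), whose lipid product recruits the kinase AKT, and AKT phosphorylates FOXO proteins so that they bind 14-3-3 proteins and leave the nucleus. When the signal is low, FOXO proteins stay in the nucleus and raise genes that slow the cell cycle, detoxify oxidants, promote apoptosis or autophagy, and restore sensitivity to the upstream signal. Most of this control acts on the protein and its location, which the transcript levels given here do not measure.

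The 250 bases before the RefSeq start sites of the members were searched for exact copies of short motifs bound by FOXO or glucose-responsive factors. RefSeq (GRCm38.p6) gave 10 such windows for 8 of the 9 genes, Foxo4 being the one without an entry. The motifs were GTAAACA, the core of the FOXO consensus, CAAAACA, the core of the insulin response element, and CACGTG, the E-box bound by factors such as the Mondo and MLX pair. Both strands were searched, and no match overlapped another. The following stretches hold every match found in the 10 windows, with the matched letters in capitals (TGTTTTG is CAAAACA on the other strand).
Txnip, chr3:96557806-96557872, plus strand: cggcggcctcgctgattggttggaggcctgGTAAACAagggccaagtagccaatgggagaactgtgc
Irs2, chr8:11008930-11009003, minus strand: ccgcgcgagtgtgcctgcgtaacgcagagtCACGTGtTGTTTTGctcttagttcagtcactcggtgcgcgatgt
Bcl6, chr16:23988877-23988942, minus strand: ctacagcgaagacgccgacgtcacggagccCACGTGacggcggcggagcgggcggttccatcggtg
Ccng2, chr5:93267546-93267572, plus strand: cgtcgcagactCAAAACAaaaacaagg
GTAAACA was found before Txnip alone among the members, beginning 121 bases ahead of the start, and in 3.17% of all 32851 promoter windows. CAAAACA lay 37 bases before the RefSeq start of Irs2 and 16 bases before that of Ccng2, and was present in 5.56% of all windows. The gene coordinates given below place the starts of Irs2 and Ccng2 elsewhere, and the Ccng2 stretch lies inside them. CACGTG began 44 bases ahead of Irs2 and 60 bases ahead of Bcl6, and 6.02% of all windows held it. A match in these letters describes the sequence and not a bound site. Inexact forms of these motifs were not searched. A window without a match, such as that of Txnip for CACGTG, is therefore not shown to lack a site.

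Total counts ranged from 12856630 to 30576981 per library, and the lowest count of any member in any library was 61 (Sesn3). Tespa1 itself, on chromosome 10, was measured at 34.5, 32.7 and 36 CPM (counts scaled to a common library total with edgeR's TMM factors) in the Tespa1+/+ libraries and at 15.3, 14.3 and 14.2 CPM in the Tespa1-/- libraries. It was lower in every Tespa1-/- library, in the direction of the labels, though transcript remained at 42.4% of the Tespa1+/+ mean (log2 fold change -1.23 ± 0.07 SE, adjusted p = 7e-06, edgeR). LSK markers were present in all libraries, but their summed level was 1120 to 1150 CPM in Tespa1+/+ and 619 to 639 CPM in Tespa1-/-, and 5 of the 6 were called lower. Neutrophil granule genes moved the other way: 10 of 10 were called higher, from a sum of 22.1 to 24.6 CPM to one of 499 to 531 CPM. B cell markers summed to 47.7 to 51.2 CPM in Tespa1+/+ and 34.8 to 38.6 CPM in Tespa1-/-, with 4 of the 5 tested lower. Cd79b was higher (22.7 to 27.3 CPM, log2 fold change 0.27) and Ms4a1 had 0 to 3 counts in every library. T cell markers summed to 3.17 to 3.36 CPM in Tespa1+/+ and 1.37 to 1.58 CPM in Tespa1-/-. Only 2 of the 5, Cd4 and Cd8a, had enough counts to test, and both were lower. Cd3e was at 0 in all Tespa1-/- libraries. Cd3d and Cd3g, at 0 to 5 counts per library, had higher means in Tespa1-/- (0.116 to 0.173 and 0.0528 to 0.147 CPM). Erythroid markers summed to 23.3 to 24.2 CPM in Tespa1+/+ and 43.9 to 47.8 CPM in Tespa1-/-. Of the 5 tested, 4 were higher and Klf1 was lower (6.27 to 3.18 CPM, log2 fold change -0.98). The part of these other cells in the results below was not tested, and fewer cells of a type cannot be told apart from less RNA per cell. Fold change also fell with gene length across the table (Spearman's rho -0.62 over 10025 expressed genes, a description across genes that are not independent), so each member is also given with a correction for this trend on the union of its exons. The correction moved the median of all genes from 0.00 to 0.11 on the log2 scale, against which corrected values should be read.

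Among the 9 genes, 6 fell in Tespa1-/- LSKs and none rose. Foxo1, Foxo3, Txnip and Irs2 fell by more than 1.5-fold, Pik3r1 and Ccng2 fell by less, and Foxo4, Sesn3 and Bcl6 did not pass the test (edgeR quasi-likelihood test, adjusted p under 0.05). Of all 15332 genes tested, 31.8% passed the test as lower and 31.5% as higher, while 19.2% were lower and 14.0% were higher by more than 1.5-fold. The CPM ranges of the 2 genotypes did not overlap for 6 of the 9 members, against 69.1% of all genes in either direction, which is close to the members' share. With the length correction 4 of the 9 passed the test as lower (Foxo3, Txnip, Irs2 and Ccng2), against 22.2% of all genes, and 2 of the 9, Txnip and Irs2, by more than 1.5-fold, against 13.4%. The median log2 fold change over the 9 was -0.68, and -0.25 with the correction.

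**Figure D1:**
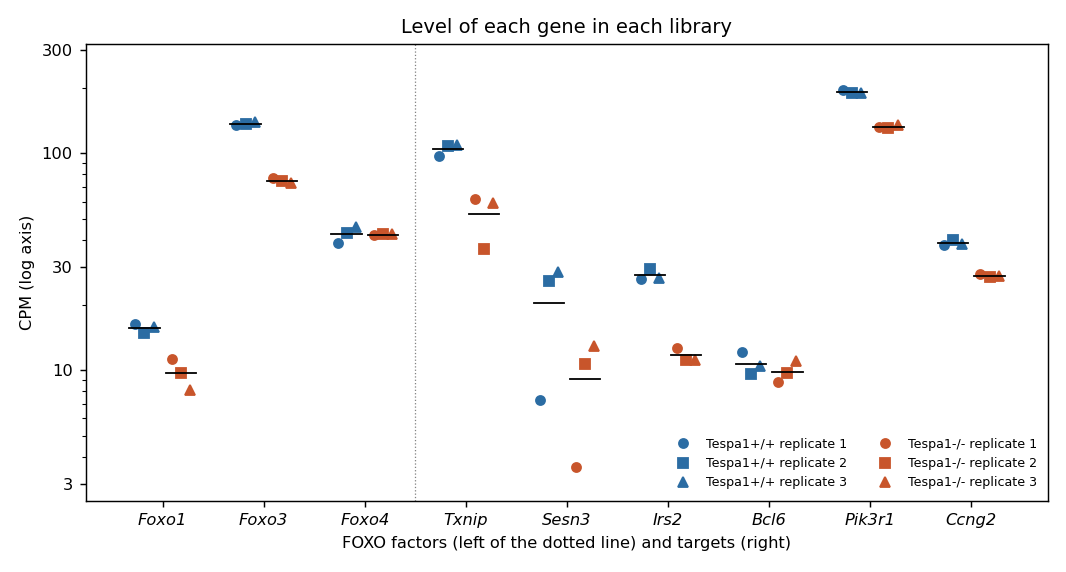
CPM of each of the 9 genes (log axis) in every library, with blue symbols for Tespa1+/+, orange symbols for Tespa1-/- and a black line at the mean of each group of 3. Foxo1, Foxo3, Txnip, Irs2, Pik3r1 and Ccng2 show no overlap between the genotypes, while replicate 1 of both genotypes is low for Sesn3.

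Foxo3, the family member with the best known role in HSC maintenance (chr10:42181841-42276755, GRCm38), was the most precisely measured of the falls beyond 1.5-fold. Its level was 136, 137 and 139 CPM in the Tespa1+/+ libraries and 77.3, 74.3 and 73.1 CPM in the Tespa1-/- libraries. The 2 genotypes were far apart compared with the spread within either, and the Tespa1-/- mean was 54.6% of the Tespa1+/+ mean. The log2 fold change was -0.87 ± 0.04 (SE, 95% interval -0.96 to -0.79, adjusted p = 2.49e-06, edgeR). Foxo3 still passed the test with the length correction, at -0.46 ± 0.04 (adjusted p = 4.63e-05), but by less than 1.5-fold.

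Foxo1, which in lymphoid cells drives Rag and Il7r transcription (chr3:52268336-52353221), had a lower level per gene length than the other two. Tespa1+/+ replicates 1 to 3 had 16.4, 14.8 and 15.8 CPM and Tespa1-/- replicates 1 to 3 had 11.3, 9.71 and 8.15 CPM. Each Tespa1-/- library was below each control library, with a wider spread than for Foxo3. Its log2 fold change was -0.68 ± 0.13 (adjusted p = 0.00249, edgeR), and -0.56 without Tespa1-/- replicate 3, which takes it below 1.5-fold. With the length correction the value was -0.20 ± 0.12 (adjusted p = 0.204), so the call was lost. An antisense gene, Gm20402, shares 674 exon bases with Foxo1 and had 0 to 5 counts per library, against 101 to 467 for Foxo1, and whether counting used the strand is not given in the sources used here.

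Foxo4, the X-linked paralogue (chrX:101254528-101260873), did not differ between the genotypes beyond the spread of the libraries. It had 38.6, 43.0 and 45.7 CPM in Tespa1+/+ and 42.0, 42.3 and 42.3 CPM in Tespa1-/- libraries, the second range lying inside the first. The log2 fold change was -0.01 ± 0.07 (adjusted p = 0.934, edgeR), and its 95% interval of -0.17 to 0.16 covers no change as large as 1.5-fold. Foxo6, a paralogue known mainly from the brain, was detected in 1 library only, at 0.158 CPM, and was not tested.

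The makeup of the FOXO transcripts therefore differed between the genotypes on the per-length scale of the deposited FPKM (counts scaled by gene length and library total). The summed FPKM of the 3 factors was 24.3 ± 0.87 in Tespa1+/+ and 16.6 ± 0.313 in Tespa1-/- (SD, n = 3 each), with an exact two-sided permutation p of 0.1, the smallest that 3 against 3 libraries allow. Foxo3 made up 52.1% ± 1.5 of this sum in Tespa1+/+ and 38.8% ± 0.38 in Tespa1-/-. Foxo4 accounted for 40.2% ± 2.01 and 54.7% ± 1.27, and Foxo1 for 7.69% ± 0.577 and 6.5% ± 0.939 (SD, n = 3). By FPKM, Foxo3 was thus the leading FOXO transcript in all Tespa1+/+ libraries and Foxo4 in all Tespa1-/- libraries. The ratio of Foxo4 to Foxo3 lay below 1 in the Tespa1+/+ libraries (0.708, 0.789 and 0.825) and above 1 in the Tespa1-/- libraries (1.36, 1.42 and 1.45), a difference of 0.87 on the log2 scale (exact permutation p = 0.1, and 0.15 adjusted over the 3 ratios compared). The log2 ratio of Foxo4 to Foxo1 was higher by 0.69 in Tespa1-/- (exact permutation p = 0.1, adjusted 0.15), whereas that of Foxo3 to Foxo1 differed by -0.17 (exact permutation p = 0.3). The 3 genes differ in length (union exons of 8665, 7571 and 3485 bases for Foxo1, Foxo3 and Foxo4). The trend with gene length therefore also enters these shares and ratios. With the length correction the log2 fold change was -0.46 for Foxo3 and 0.05 for Foxo4. Whether Foxo4 would still lead in Tespa1-/- with that correction was not tested.

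**Figure D2:**
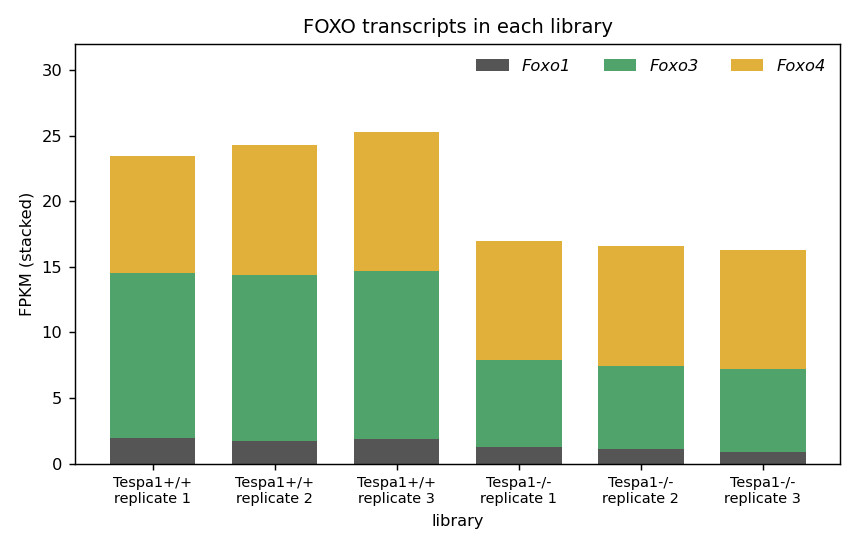
Stacked FPKM of Foxo1, Foxo3 and Foxo4 in each of the 6 libraries. The bars sum to 23.5 to 25.2 FPKM in Tespa1+/+ and to 16.3 to 16.9 FPKM in Tespa1-/-, with a shorter Foxo3 segment and a similar Foxo4 segment in Tespa1-/-.

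Txnip, the thioredoxin-interacting protein, binds and inhibits thioredoxin, limits glucose uptake, and is known for keeping HSCs quiescent (chr3:96557957-96561883). It was measured at 97.3, 108 and 109 CPM in Tespa1+/+ and at 61.7, 36.4 and 59.4 CPM in Tespa1-/- libraries. All Tespa1-/- libraries were lower, with replicate 2 well below the other two. The log2 fold change was -0.99 ± 0.18 (adjusted p = 0.00244, edgeR), and -0.78 without Tespa1-/- replicate 2 (adjusted p = 0.000153). Txnip has the shortest union exon length of the 9 genes, 3123 bases, and the length correction barely moved it (-0.98, adjusted p = 0.00282). The antisense gene Gm15441 shares 606 exon bases with it and had 8 to 31 counts per library, against 528 to 3402 for Txnip.

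Irs2, the adaptor that couples insulin and cytokine receptors to PI3K (chr8:10984681-11008458), showed the largest fall among the members that passed the test. It had 26.4, 29.4 and 26.7 CPM in the Tespa1+/+ libraries and 12.7, 11.2 and 11.1 CPM in the Tespa1-/- libraries. The ranges were well separated, with a Tespa1-/- mean of 42.5% of the control mean. Its log2 fold change was -1.23 ± 0.08 (adjusted p = 1.76e-05, edgeR) and -0.91 ± 0.08 with the length correction (adjusted p = 0.000101). Irs1, its relative, had no count in any library, so Irs2 was the only one of the pair detected.

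Pik3r1 encodes p85 alpha, the main regulatory subunit of PI3K, which both stabilises and restrains the catalytic subunit (chr13:101680563-101768217). Its level was 197, 190 and 191 CPM in Tespa1+/+ and 133, 131 and 136 CPM in Tespa1-/-. The groups did not overlap. The log2 fold change of -0.53 ± 0.03 passed the test (adjusted p = 9.82e-06, edgeR) below 1.5-fold. With the union exons of Pik3r1 spanning 10079 bases, the length correction brought it to 0.02 ± 0.03 (adjusted p = 0.681), so it no longer passed the test.

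Ccng2, cyclin G2, is an unusual cyclin that accompanies exit from the cell cycle (chr5:93267257-93276231). It was found at 37.9, 40.0 and 38.3 CPM in Tespa1+/+ and at 27.8, 26.9 and 27.1 CPM in Tespa1-/-. The groups did not overlap, and the log2 fold change was -0.51 ± 0.05 (adjusted p = 0.000129, edgeR), or -0.25 ± 0.05 with the length correction (adjusted p = 0.00508). Its relatives Ccng1 and Ccni were measured at 60.2 ± 2.54 and 246 ± 4.25 CPM in Tespa1+/+ (SD, n = 3), with log2 fold changes of 0.14 and 0.12 (adjusted p = 0.038 and 0.00625, edgeR). Neither passed with library totals in place of TMM factors (0.04 and 0.02), and Ccng1 did not pass with DESeq2 (adjusted p = 0.153) or when Tespa1+/+ replicate 1 or 3 or Tespa1-/- replicate 1 or 3 was left out (adjusted p from 0.0809 to 0.11).

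Sesn3, a sestrin that restrains mTORC1 and oxidant levels (chr9:14275067-14333101), was the most variable member. Its level was 7.32, 25.7 and 28.5 CPM in Tespa1+/+ and 3.58, 10.7 and 13.0 CPM in Tespa1-/-. Replicate 1 of each genotype was low, and the Tespa1+/+ replicate 1 value fell inside the Tespa1-/- range, so the groups overlapped. The log2 fold change was -1.20 ± 0.59 with a 95% interval from -2.58 to 0.19, and it did not pass the test (adjusted p = 0.114, edgeR). Without Tespa1+/+ replicate 1 it was -1.59 (adjusted p = 0.0224), and without Tespa1-/- replicate 1 it was -0.79 (adjusted p = 0.26). With the replicate number as a block it was -1.15 ± 0.09 (adjusted p = 0.000453, edgeR), but the labels do not say that the numbers pair the samples. The SD of its log2 CPM within groups was 1.04, against a median of 0.08 over 10999 genes with a mean above 5 CPM, of which 52 varied more. Its union exons, 15269 bases, are the longest of the 9, and the length correction gave -0.48 ± 0.59 (adjusted p = 0.515).

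Bcl6, a transcriptional repressor that FOXO proteins induce in lymphocytes (chr16:23965052-23988852), did not pass the test. It had 12.1, 9.6 and 10.5 CPM in Tespa1+/+ and 8.81, 9.71 and 11 CPM in Tespa1-/-. The ranges overlapped, with a log2 fold change of -0.12 ± 0.13 (95% interval -0.42 to 0.18, adjusted p = 0.437, edgeR). The sign turned with the length correction, to 0.24 ± 0.13 (adjusted p = 0.154).

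**Figure D3:**
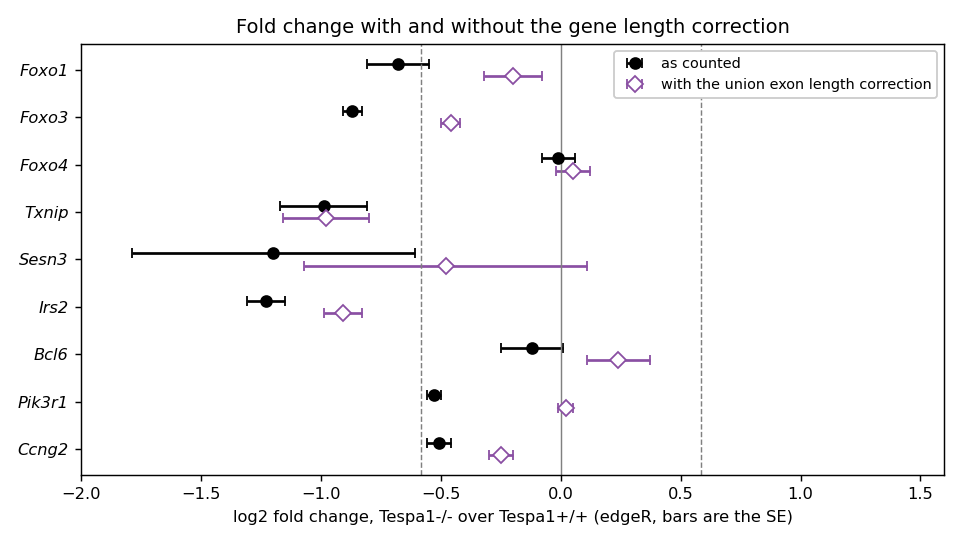
Log2 fold change of Tespa1-/- over Tespa1+/+ for each gene from edgeR, as counted (black circles) and with the union exon length correction (open purple diamonds); bars are the SE and dashed lines mark 1.5-fold. Txnip and Irs2 stay beyond 1.5-fold with the correction, at -0.98 and -0.91, while Pik3r1 moves from -0.53 to 0.02 and Bcl6 from -0.12 to 0.24.

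The order of the levels per length also changed. In Tespa1+/+ the mean FPKM ran from Txnip (15.6 ± 0.923) and Pik3r1 (15.0 ± 0.287), whose ranges overlapped, through Foxo3 (12.7 ± 0.112), Foxo4 (9.8 ± 0.822), Irs2 (4.5 ± 0.259), Ccng2 (3.88 ± 0.108) and Foxo1 (1.87 ± 0.0996) to Bcl6 (1.49 ± 0.179) and Sesn3 (1.24 ± 0.694), which overlapped again (SD, n = 3). In Tespa1-/- Pik3r1 (9.67 ± 0.17) and Foxo4 (9.09 ± 0.0457) led, followed by Txnip (7.32 ± 1.95) and Foxo3 (6.45 ± 0.18), whose ranges overlapped. Ccng2 (2.55 ± 0.0436) then stood above Irs2 (1.78 ± 0.13), the reverse of their order in Tespa1+/+, and Bcl6 (1.27 ± 0.146), Foxo1 (1.08 ± 0.176), which overlapped Bcl6, and Sesn3 (0.513 ± 0.277) came last. Foxo4 thus moved from the fourth place to the second by FPKM, to which the length correction was not applied. The lengths behind the deposited FPKM were longer than the union of the exons for 7 of the 9 genes (6915 against 3123 bases for Txnip, and 11206 against 7571 for Foxo3), so the order depends on them.

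Across the 6 libraries, the genes with a log2 CPM pattern most like that of Foxo1 were Nfkbie (Pearson r 0.9956), Fgfr1op (0.994) and Gmfb (0.9935), and those most like Foxo3 were Hectd4 (0.9999), Mki67 (0.9998) and Zfp704 (0.9997). These values describe 10032 genes over libraries that differ by genotype. For Foxo1 405 genes, and for Foxo3 2115 genes, had an r above 0.95. Mki67, a proliferation marker, had a log2 fold change of -0.72, or -0.18 with the length correction. Proliferation markers did not share its direction: of 7 tested, 2 passed as lower and 3 as higher, against 31.8% and 31.5% of all genes. With the length correction 1 passed as lower, against 22.2% of all genes, and 6 as higher, for which no share of all genes was counted.

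The remaining genes of the pathway were read by role. Of the 97 listed, 85 were tested, 49 passed as lower and 18 as higher, and 30 were lower and 3 higher by more than 1.5-fold. The shares among all genes tested were 31.8% and 31.5% for passing and 19.2% and 14.0% beyond 1.5-fold, and these are also the background of the counts by role below. The median log2 fold change of the listed genes was -0.36, against 0.00 for all genes. With the length correction the median was 0.01, against 0.11 for all genes. Beyond 1.5-fold, 17 were then lower, against 13.4% of all genes, and 5 were higher. The share of all genes higher with the correction was not counted, so corrected counts of higher genes have no background here or below. The count of 3 higher genes was 5 without Tespa1+/+ replicate 3.

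**Figure D4:**
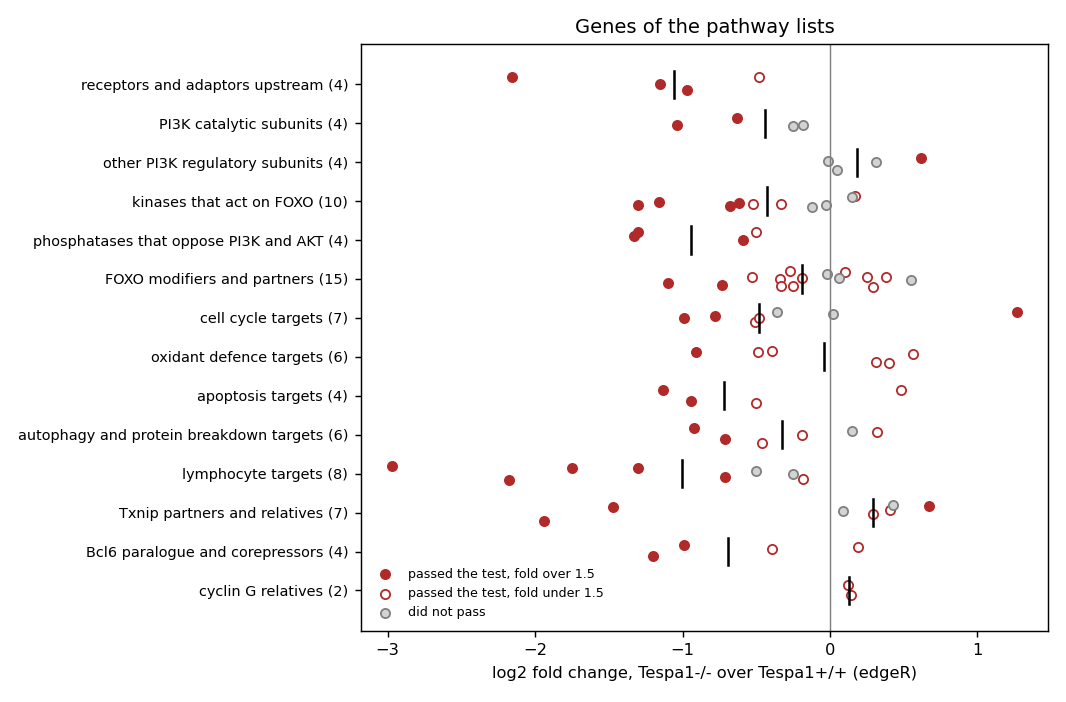
Log2 fold change of Tespa1-/- over Tespa1+/+ (edgeR) for the tested genes of each list, with the number tested in brackets and a black line at the median of the list. Phosphatases, upstream receptors and lymphocyte targets lie mostly to the left of 0, with list medians of -0.95, -1.06 and -1.0, while oxidant defence targets lie on both sides.

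Upstream of FOXO, all 4 tested receptors fell, while with the length correction 2 passed as lower and 1 as higher. Kit, the stem cell factor receptor, fell by 0.97 on the log2 scale (-0.48 corrected) and Insr, the insulin receptor, by 1.15, while Igf1r fell by 0.48 but had a corrected value of 0.28. Kit is also one of the LSK sort markers counted above. The Insr value rested on variable Tespa1-/- libraries (27.2 ± 13.5 CPM) and was -0.46 with the correction (adjusted p = 0.288). It did not pass when any 1 of the Tespa1+/+ libraries was left out (adjusted p from 0.0538 to 0.0588).

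The PI3K subunits used by blood cells moved in both directions. Pik3cg and Pik3cd, the leukocyte catalytic subunits gamma and delta, fell by 1.04 and 0.63 on the log2 scale, to -0.57 and -0.31 with the correction. The broadly expressed Pik3ca and Pik3cb had values of -0.25 and -0.18 and did not pass the test. Among the other regulatory subunits Pik3r5, the partner of Pik3cg, rose by 0.62 (25.7 ± 1.19 CPM in Tespa1+/+ and 39.5 ± 0.802 in Tespa1-/-). Pik3r2, Pik3r3 and Pik3r6 did not pass in the main fit. Pik3r6 passed without Tespa1+/+ replicate 2 (0.45, adjusted p = 0.0481, edgeR), and Pik3r2 with the union exon length correction (0.12, adjusted p = 0.049, edgeR).

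Of the 10 kinases and kinase partners that act on FOXO, 6 fell and 1 rose. With the length correction 3 passed as lower and 1 as higher, and the median log2 fold change moved from -0.43 to 0.07. Akt1 rose by 0.17 on the log2 scale (278 ± 7.91 CPM in Tespa1+/+ and 313 ± 13.7 in Tespa1-/-; SD, n = 3), but did not pass with library totals (0.07, adjusted p = 0.167), and Akt2 fell (-0.33, or 0.06 with the correction). Rictor, the defining subunit of mTORC2, the complex that completes AKT activation, fell by 1.30 (-0.54 corrected), and Mtor by 0.68 (-0.12 corrected). Sgk3, a relative of AKT, fell by 0.62 and had a corrected value of 0.08.

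All 4 phosphatases that oppose the pathway fell, and 2 of them still passed as lower with the length correction. Phlpp1 and Phlpp2, which remove the activating phosphate from AKT, fell by 1.30 and 1.33 on the log2 scale, and by 0.94 and 0.86 with the correction. Inpp5d, which encodes SHIP1, fell by 0.50, but its corrected value was -0.08 and did not pass the test (adjusted p = 0.0909).

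Of the 15 tested modifiers and partners of FOXO proteins, 8 fell and 4 rose. With the length correction 3 passed as lower, against 22.2% of all genes, and 6 as higher, for which no share of all genes was counted. Their median log2 fold change moved from -0.19 to 0.14, against a move from 0.00 to 0.11 for all genes. The acetyltransferases Ep300 and Crebbp fell by 1.10 and 0.73 on the log2 scale (-0.40 and -0.05 corrected). The deacetylase Sirt1 had 39.2 ± 7.22 and 40.6 ± 3.63 CPM and did not pass the test. The 14-3-3 genes did not share a direction: Ywhae rose by 0.29 and Ywhaq fell by 0.33 on the log2 scale. Ywhab and Ywhaz had 0.10 and 0.25 but did not pass with library totals (0.00 and 0.15), Ywhaz also not without Tespa1+/+ replicate 1 or Tespa1-/- replicate 1 or 3, and Ywhag had -0.19, or 0.07 with the length correction. Prmt1, a methyltransferase that keeps AKT from phosphorylating Foxo1, rose by 0.38.

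FOXO targets outside the 9 genes were also mixed. Over the 6 target lists, 31 of 38 genes were tested, 20 passed as lower and 6 as higher, with a median of -0.49 (-0.37 with the correction). The lower genes include Ccnd1, which FOXO proteins repress, so these counts do not give a direction of FOXO output. None of the 4 metabolic targets of liver and muscle (Pdk4, Pck1, G6pc and Ppargc1a) had enough counts to test.

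Among cell cycle targets, Cdkn1b, which encodes the CDK inhibitor p27, fell by 0.78 ± 0.20 (84.5 ± 17.9 CPM in Tespa1+/+ and 49.3 ± 10.4 in Tespa1-/-). Cdkn1a, which encodes p21, varied among libraries (75.1 ± 21.9 and 58.2 ± 24.6 CPM) and did not pass (adjusted p = 0.396, edgeR). Gadd45a, a stress and DNA damage response gene, rose by 1.27 ± 0.05, from 30.7 ± 1.27 to 74.1 ± 2.42 CPM, the largest rise in the pathway lists. Ccnd1, a D-type cyclin that FOXO proteins repress, fell by 0.99 ± 0.07.

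Oxidant defence targets split evenly, with 3 lower and 3 higher. Sesn1 fell (-0.91 ± 0.06, with 49.2 ± 1.57 and 26.1 ± 1.67 CPM), whereas Sesn2 had 0.31 ± 0.09 (12.5 ± 1.05 and 15.5 ± 0.693 CPM). Sesn2 did not pass with library totals (0.21, adjusted p = 0.0747), with DESeq2 (0.0733), without Tespa1+/+ replicate 1 (0.0501) or without Tespa1-/- replicate 2 (0.0533). Catalase (Cat) fell by 0.39, whereas the mitochondrial enzymes Sod2 and Prdx3 rose by 0.40 and 0.56 on the log2 scale. With the length correction Cat had -0.44, Sod2 0.95 and Prdx3 0.36.

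In the apoptosis list Bcl2l11, which encodes the BH3-only protein BIM, and Tnfsf10, which encodes TRAIL, fell by 0.94 and 1.13 on the log2 scale. With the length correction these genes had -0.49 and -0.89. Bbc3 (PUMA) fell by 0.50 (-0.61 corrected). Bnip3 had 0.48 (0.39 corrected), but did not pass without Tespa1+/+ replicate 2 (adjusted p = 0.0563, edgeR) or Tespa1-/- replicate 1 (0.0604). Of the 6 tested autophagy and protein breakdown genes, 4 passed as lower and 1 as higher, or 3 and 2 with the length correction. Map1lc3b and Ulk1 fell by 0.92 and 0.71 (-0.50 and -0.37 corrected), whereas Atg12 rose by 0.32 (0.75 corrected). The muscle ubiquitin ligases Fbxo32 and Trim63 were at or near 0.

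Of the lymphocyte targets 6 of 8 fell, and the 2 largest falls of all pathway lists were among them. Rag1 and Rag2, the recombinase genes, had log2 fold changes of -2.97 ± 0.23 and -2.18 ± 0.30, from 8.49 ± 0.657 to 1.05 ± 0.425 CPM and from 2.4 ± 0.21 to 0.508 ± 0.245 CPM. Il7r fell by 1.75, S1pr1 by 1.30 and the quiescence factor Klf2 by 0.71 (669 ± 27.5 and 408 ± 17.7 CPM). B cell marker sums were lower in the same libraries, and their part in these values was not tested.

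Around Txnip, its target thioredoxin moved the other way: Txn1 rose by 0.67 ± 0.04, from 200 ± 1.31 to 318 ± 14.9 CPM. Its union exons span 1051 bases, and its value with the length correction was 0.40, below 1.5-fold. Mitochondrial Txn2 rose by 0.29, or 0.19 with library totals, where it did not pass (adjusted p = 0.0754, edgeR). The related alpha-arrestin Arrdc3 fell by 1.94 ± 0.07 (67.3 ± 1.8 and 17.5 ± 1.59 CPM), Arrdc4 rose by 0.41 and Arrdc2 did not pass. Mlxip, which encodes MondoA, the glucose-sensing activator of Txnip, fell by 1.47 ± 0.05 (144 ± 3.13 and 52 ± 2.8 CPM), and its partner Mlx did not pass the test (adjusted p = 0.149, edgeR; 0.0499 without Tespa1-/- replicate 1). Around Bcl6, the corepressors Bcor and Ncor1 fell by 0.99 and 0.39 on the log2 scale (-0.51 and 0.26 corrected), and Hdac3 had 0.19, which did not pass with library totals (0.09, adjusted p = 0.0739).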

How the data were processed

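LSK RNA from 3 Tespa1+/+ and 3 Tespa1-/- irradiated mice or pools was sequenced as stranded poly-A libraries. The authors deposited raw counts per gene and FPKM. The submitters' processing notes name CASAVA 1.8, HISAT2, StringTie, edgeR and the build GRCm38; the strand setting of counting is not given in the sources used here. Counts of all genes that passed filterByExpr (15332) were fitted with edgeR 4.0.16 in R 4.3.3 (TMM, quasi-likelihood F-test, no covariate, Benjamini-Hochberg adjustment over these genes) and those with an adjusted p below 0.05 passed the test; a call also needs a change beyond 1.5-fold. Each SE was derived from the F statistic and the log2 estimate. The FOXO ratios used deposited FPKM and exact permutation tests. The length correction is a loess fit (span 0.5) of the log2 CPM deviation of each library on log union exon length (GENCODE M21), used as an offset. Alternatives were RLE factors, total counts, 2 other filters, DESeq2 1.42.0, limma 3.58.1 on log2 FPKM with pseudocounts of 1 and 0.1, the replicate block, each library left out, and the length implied by counts and FPKM. Scripts were tested on simulated data. The genes described and the lists were chosen with earlier results of these data known. Named genes are the 9 members, genes of the pathway and marker lists (some are counted but not reported here by name), and the 3 genes most correlated with Foxo1 and with Foxo3 among genes with a mean log2 CPM over 3. Counting error at these depths is small except for genes with few counts, and PCR copies cannot be recognised in reads that carry no molecular identifier.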

Additional observations from a re-analysis of the deposited data

How the results depend on the processing

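Of 142 pairs of a member and a setting, 131 kept the direction and the side of the adjusted p threshold of 0.05. For the other named genes 881 of 967 did, 52 no longer passed, 3 newly passed and 31 changed sign. These counts leave out the 1.5-fold limit, so that Foxo3 at -0.46 with the union exon length correction counts as kept. The union exon length correction lowered the members called lower from 4 to 2, gave Foxo1 -0.20, Foxo4 0.05, Bcl6 0.24 and Pik3r1 0.02, and left 17 pathway genes called lower (from 30) and 5 called higher (from 3). It turned Sgk3 to 0.08, Igf1r to 0.28, Pik3ca to 0.25, Pik3cb to 0.21, Akt2 to 0.06, Ywhag to 0.07, Ncor1 to 0.26 and Pik3r2 to 0.12. Correction on the implied length gave 2 members and 17 pathway genes called lower, with Foxo4 at 0.00, Bcl6 at 0.08, Sgk3 at 0.10, Igf1r at 0.14, Pik3ca at 0.20, Pik3cb at 0.08, Akt2 at 0.09, Ywhag at 0.06, Ncor1 at 0.26 and Pik3r2 at 0.09. Total counts gave 6 members called lower (Pik3r1 and Ccng2 added) and 1 pathway gene called higher, with Pik3r3 at -0.05, Sirt1 at -0.04 and Arrdc2 at -0.01. Limma on FPKM gave 3 members called lower with a pseudocount of 1 and 6 with 0.1, 1 pathway gene called higher with either, Sirt1 at -0.03 with both, and Arrdc2 at -0.01 and -0.02. Sesn3 did not pass the FPKM filter and has no value there. Leaving out 1 library at a time gave 3 to 5 members called lower, 28 to 31 pathway genes called lower and 3 to 5 called higher. Foxo4 ranged from -0.07 to 0.06, Sesn3 from -1.59 to -0.79, Pik3r3 from -0.09 to 0.30, Sirt1 from -0.08 to 0.19, Arrdc2 from -0.02 to 0.18 and Pik3r2 from -0.03 to 0.02. Same-numbered libraries deviated together only weakly (correlations 0.046, 0.011 and 0.06), but each of the 6 correlated best with its own number. These values do not settle whether the numbers pair the samples. The labels do not say, and the main fit left the numbers out. With the replicate block Sesn3 was -1.15 (adjusted p = 0.000453, edgeR) and 5 members were called lower, with no change for the other members. The causes were not tested, beyond the loss of genes that the FPKM filter makes by construction. With 3 libraries a group, the exact tests of the FOXO ratios could not pass 0.05 under any setting.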
